A study of Drosophila melanogaster with 2 samples.

Results

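The genes described here are the small nucleolar RNA (snoRNA) and spliceosomal or related small nuclear RNA (snRNA) genes of Drosophila melanogaster, looked at as places where GFP-tagged Ovo was found on chromatin. They were taken as all genes of those 2 biotypes on the 6 main chromosome arms of the Ensembl annotation of genome Release 6 (dm6), which gave 301 of the 18164 annotated genes once transposable elements were set aside. Of the 301 genes, 269 were snoRNA genes and 32 were snRNA genes. Each gene was given a window of itself and 500 bp on either side, and was said to have a peak if that window held a peak summit. The study was a chromatin immunoprecipitation followed by sequencing (ChIP-seq) with an antibody to GFP, on whole adult females of a transgenic line that carries Ovo with GFP at its C terminus. It has 1 group with 2 biological replicates, numbered 1 and 4, both from the same line. Their age is listed as unknown, and whole animals mix all tissues, so a peak cannot be assigned to the germline or to any other cell type. A peak list was deposited for each replicate and for the 2 pooled (30000 peaks each, the relaxed lists), together with 4477 thresholded peaks kept by the irreproducible discovery rate (IDR) procedure.

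Ovo is a zinc-finger transcription factor known for its role in the female germline, where it acts on the promoters of oocyte genes. SnoRNAs guide the chemical modification of other RNAs: box C/D snoRNAs direct the methylation of ribose, and box H/ACA snoRNAs direct the change of uridine to pseudouridine, mostly on ribosomal RNA, while the related scaRNAs (small Cajal body RNAs) act on snRNAs. In flies most snoRNAs are cut out of the introns of host genes and so use the host's promoter, whereas snRNA genes usually have promoters of their own, in which the proximal sequence element A (PSEA) upstream of the start binds a complex that recruits the polymerase. In snoRNA names, Psi and Me stand for pseudouridine and methylation, followed by the RNA and position modified.

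The following stretches are from Release 6 and are read on the strand of each gene, from 70 to 35 bases before its start; they are shown because they cover the usual place of the PSEA, in genes that had a peak and in copies that did not. Capitals mark the letters AATTCCC, part of the PSEA.
U1:95Ca (chr3R:23859665-23859700, minus strand): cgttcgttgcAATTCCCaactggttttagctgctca
U1:82Eb (chr3R:4948131-4948166, minus strand): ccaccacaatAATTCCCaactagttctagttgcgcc
U1:21D (chr2L:901689-901724, minus strand): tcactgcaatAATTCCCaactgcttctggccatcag
U1:95Cb (chr3R:23827800-23827835, plus strand): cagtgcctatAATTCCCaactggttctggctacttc
7SKa (chr3R:7475031-7475066, minus strand): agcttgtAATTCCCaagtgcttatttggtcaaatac
U4:39B (chr2L:21215213-21215248, minus strand): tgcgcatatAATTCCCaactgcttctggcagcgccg
U6:96Ac (chr3R:24557145-24557180, plus strand): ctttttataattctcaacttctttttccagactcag

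All 5 U1 genes begin with the same 40 bases, which hold the Ovo core site TAACNGT at bases 22 to 28 (capitals), shown as the gene sequence in which a core site lay closest to a member's summit.
U1:95Ca (chr3R:23859591-23859630, minus strand): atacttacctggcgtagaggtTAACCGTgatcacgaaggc

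A thresholded summit lay in or near 21 of the 301 genes (6.98%, 95% Clopper-Pearson interval 4.37 to 10.5), and a summit of the pooled relaxed list in or near 80 (26.6%, 21.7 to 31.9). Intervals count genes, which often share a host or a peak, and cover counting error only. Over all 18164 genes the same window held a thresholded summit for 23.8% and a relaxed summit for 61.9%, but most of those genes are longer and include a coding promoter. Tiles of 1135 bp, the median width of the members' windows, held a thresholded summit in 3.44% and a relaxed summit in 21% of cases. The 290 tRNA genes, the other large class of short RNA genes, had a thresholded summit at 8.28% and a relaxed summit at 38.3%. The share of snoRNA and snRNA genes with a peak was thus below that of all genes in both lists. Its interval lay above the share of tiles in both, though narrowly in the relaxed list (lower end 21.7%, beside 21%). With overlapping windows merged, the 301 genes formed 141 loci, so the narrow gap in the relaxed list is not read as a difference. Of these loci, 19 held a thresholded summit, and no background of matched width was computed for them.

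By position, peaks at the genes inside coding introns were about as frequent as in tiles of the genome. Of the 209 genes in a same-strand intron of a protein-coding gene, 9 had a thresholded summit (4.31%, 1.99 to 8.02), against 3.6% of tiles centred in a coding intron. The 92 independent genes had 12 (13.0%, 6.93 to 21.7). Among these, 46 lay in a non-coding host transcript, most of them in Uhg genes (snoRNA host genes), and 3 of the 46 had a summit (6.52%, 1.37 to 17.9). The other 46 lay in neither a same-strand coding intron nor a non-coding host transcript and are called genes with no host. Of these, 9 had a summit (19.6%, 9.36 to 33.9). Some of the 46 lay in a coding intron on the opposite strand or inside a coding exon. Counting either strand, 226 genes lay in a coding intron in place of 209, and 12 independent genes still had a thresholded summit. In the relaxed list a summit was found for 45 of the 209 intronic genes (21.5%, 16.2 to 27.7), 8 of the 46 with a non-coding host (17.4%, 7.82 to 31.4) and 27 of the 46 with no host (58.7%, 43.2 to 73.0). In both lists the intervals of the intronic genes and of those with a non-coding host included the share of tiles, and the interval of the genes with no host lay above it. The interval of the genes with no host included the share of all genes in both lists (23.8% and 61.9%).

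By RNA class, 6 of the 32 snRNA genes had a thresholded summit (18.8%, 7.21 to 36.4), and 15 of the 269 snoRNA genes (5.58%, 3.15 to 9.03). Without replicate 1 the snRNA count was 3 of 32 (7SKa, U1:95Ca and U5:35D), and without replicate 4 it was 6. Box H/ACA genes had 9 of 114 (7.89%), box C/D genes 5 of 109 (4.59%), and the snoRNA genes whose name gives no class 1 of 30. None of the 16 scaRNA genes had one, which allows a share of up to 20.6%, and 4 of them had a relaxed summit. These class intervals overlap.

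**Figure D1:**
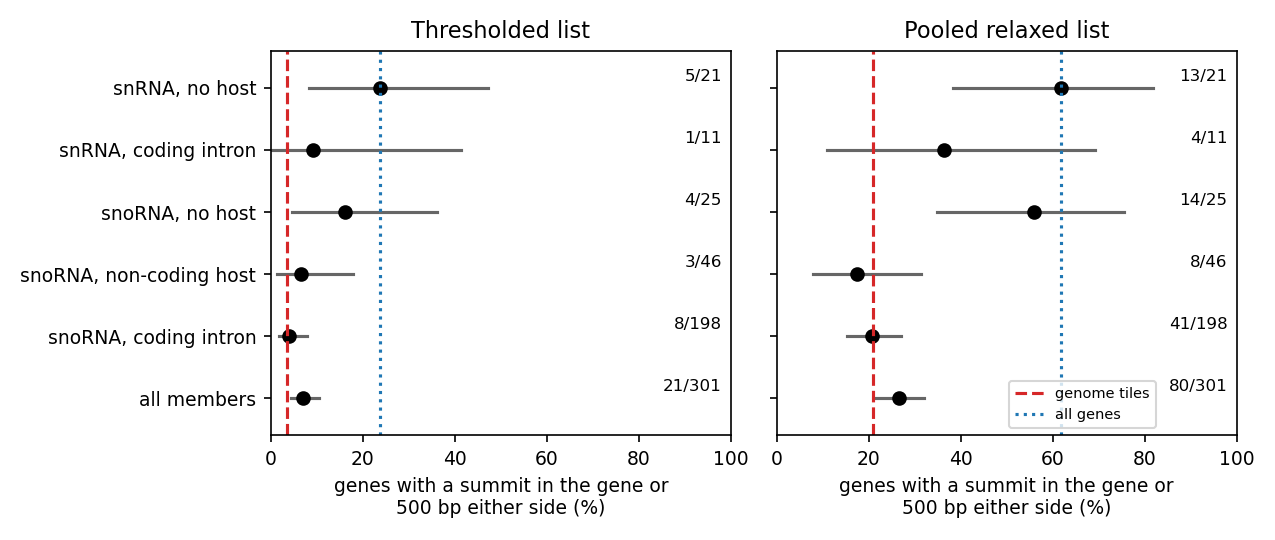
Percent of genes (x axis) with a summit in the gene or 500 bp either side, by class (y axis), for the thresholded list (left) and the pooled relaxed list (right); points are shares, bars 95% Clopper-Pearson intervals, and the counts stand at the right. The dashed line gives genome tiles of the same width and the dotted line all genes: the 8 of 198 intronic snoRNA genes lie near the tiles and the 5 of 21 snRNA genes with no host near all genes.

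The 21 genes shared 19 distinct thresholded peaks, since U6:96Ab and U6:96Ac shared 1 and Psi28S-2949 and Or-aca5 another. The 19 peaks had a median score (the authors' measure of enrichment over the control) of 118, from 76.8 to 356, beside a median of 116 over the thresholded list. Each of the 19 had a summit within 100 bp in both replicates' relaxed lists. In 13 of the 19 it ranked among the 4477 of highest score in both replicates. The peaks fell into 2 sets. In 9, the summit lay within 500 bp of a start site (TSS) of the host, with a median score of 165. In the other 10, neither a host TSS nor a coding TSS lay within 500 bp, and the median score was 96.04, from 76.8 to 222. A coding TSS lay within 500 bp of 8 of the 19 (42.1%), beside 63.7% of all thresholded summits.

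**Figure D2:**
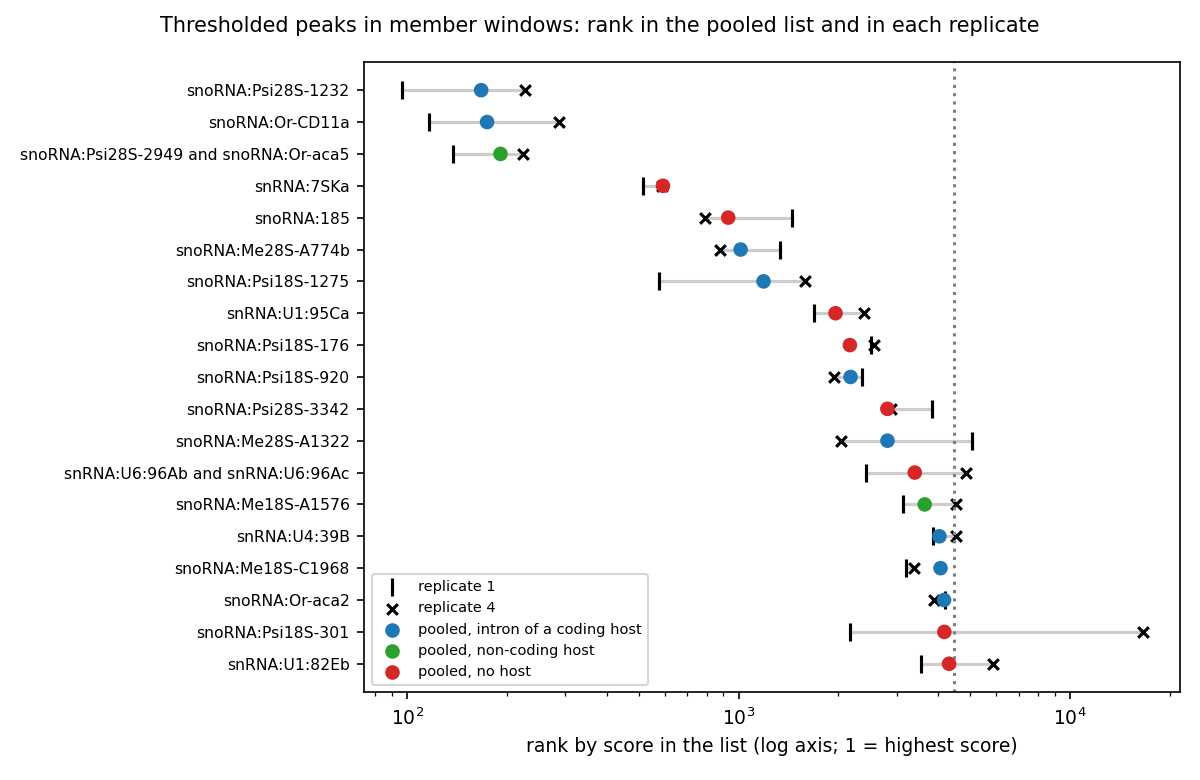
Rank by score (x axis, log scale, 1 is the highest) of the 19 thresholded peaks in member windows (y axis) in the pooled list (coloured points, by the class of the gene), in replicate 1 (bars) and in replicate 4 (crosses); the dotted line is rank 4477. The 3 peaks of highest score ranked 286 or better in all 3 lists, and Psi18S-301 ranked 2166 in replicate 1 and 16588 in replicate 4.

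The 2 highest scores near snoRNA genes belonged to peaks at ribosomal protein promoters. The peak near Psi28S-1232 (chrX:6744181-6744367) scored 356 and ranked 167, with 189 in replicate 1 and 181 in replicate 4. Its summit lay 442 bp upstream of the snoRNA and 19 bp upstream of a start site of the host RpL17, a protein of the large ribosomal subunit. The peak near Or-CD11a scored 353 and ranked 174, with 179 in replicate 1 and 168 in replicate 4, and lay 67 bp upstream of RpL28, whose promoter region it shares with eIF1, a translation initiation factor gene. Both replicates thus placed these peaks at the host promoter, near the outer edge of the snoRNA's window. Or-CD11a was the member farthest from its summit, at 486 bp, and the nearest member just outside the window was Me18S-C1096 in RpL3, at 501 bp.

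Further down the list stood 4 more ribosomal protein hosts. Me28S-A774b in RpS12 had a peak of score 178, with 69.8 in replicate 1 and 108 in replicate 4, and the summit 27 bp before the RpS12 start. Psi18S-1275 in RpS29 had one of 165 (100.3 and 81.4 in replicates 1 and 4), 15 bp before the start. Both lay upstream of the snoRNA, by 255 and 316 bp. Psi18S-920 in RpL10Ab had a peak of 118 (50.9 and 72.1), and Or-aca2 in RpS6 one of 78.6 (36.02 and 47.4), which ranked 4171 and so close to the end of the list. The remaining coding host with a TSS peak in a snoRNA's window was eEF1alpha1, a translation elongation factor gene, where the summit lay 226 bp downstream of the 5′ end of Me28S-A1322 and 193 bp upstream of a start. It scored 102, and ranked 5073 in replicate 1 and 2040 in replicate 4.

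Of the 19 thresholded member-window summits, 5 had the letters ATCGATA within 50 bp, on either strand, and all 5 were among these ribosomal protein promoters. The share over all thresholded summits, at promoters or elsewhere, was 4.98%. Among the further member-window peaks of the relaxed list 1 had it, 62 bp upstream of the Uhg1 start. ATCGATA is the core of the DNA replication-related element (DRE), a site of housekeeping promoters. In each of the 5 it stood within the palindrome TATCGATA, which matches on both strands and is given in capitals, on the strand of the host; its centre lay between 89 bases before and 18 bases after the nearest host start.
RpL28, host of Or-CD11a (chr3L:3223034-3223063, minus strand): tacgaaatgctTATCGATAgttgccctgcc
RpS12, host of Me28S-A774b (chr3L:13023300-13023329, plus strand): ctctgcgaaacTATCGATAtttgtaccaat
RpS29, host of Psi18S-1275 (chr3R:9778046-9778075, plus strand): atcgtggaaaaTATCGATActgccaccccc
RpL10Ab, host of Psi18S-920 (chr3L:11822763-11822792, plus strand): ctattaatgaaTATCGATAtatattcgcac
RpS6, host of Or-aca2 (chrX:7901368-7901397, minus strand): tgagcacgaacTATCGATAtgcggcggtac

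The TCT initiator, in which the start of transcription falls in a pyrimidine run, is a feature of ribosomal protein promoters in flies. A form of it (TCTTTC on the sense strand, with T or C allowed at its first and last base) stood within 10 bases of a start in 21 of the 28 ribosomal protein hosts (75%), in 4 of the 60 other coding hosts (6.67%) and in 3.03% of all coding genes. No form was found at a start of Arpc2 (17 snoRNAs), dom (15) or kra (8), nor of RpL17 and RpS12, with peaks of 356 and 178. Stretches of 21 bases centred on a start show it in some of the hosts with many snoRNAs or a high peak that do have it. The search asked only for these letters within 10 bases of the start, which is the middle base of each stretch. The annotated start need not fall in them.
RpS5a (chrX:17148254-17148274, minus strand): tgccgtaacatgtTCTTTTtc
RpS7 (chr3R:30208932-30208952, minus strand): gctcgacttCCTTTCctgtca
RpL23A (chr3L:1668644-1668664, minus strand): cccctcagttttCCTTTTcat
Sf3b3 (chr3L:833375-833395, minus strand): tacttttatagtTCTTTTact

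Seen from the hosts, peaks were more frequent than in the snoRNAs' own windows. Of the 88 coding hosts, 54 carried a thresholded peak at a TSS, with the summit at most 500 bp away (61.4%, 50.4 to 71.6), beside 23.5% of all coding genes. The summits lay a median of 53.5 bp upstream of the start and the best score per host had a median of 164. Ribosomal protein hosts, taken as those named RpL or RpS, had a peak in 26 of 28 (92.9%, 76.5 to 99.1) with a median score of 208; RpL15 and RpS9 were the other two. The 60 other coding hosts had one in 28 (46.7%, 33.7 to 60.0) with a median of 136. Among these 60 is sta, which encodes the ribosomal protein SA and had a peak of 136; with it moved, the counts were 27 of 29 and 27 of 59. Hosts of intronic snRNAs, which usually have promoters of their own, had 1 of 7, at Atg18b. Together 152 of the 209 intronic genes had a host with a TSS peak, and the host's TSS summit fell in the window of 7 of these and outside that of 145. Any thresholded summit was found for 8 of the 152, U4:39B being the additional one, and for 1 of the 57 whose host had none.

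Whether a promoter summit fell in the window varied with the distance of the RNA gene from the host's start. This is largely set by the window, which reached 500 bp beyond the gene, so the shares by distance are descriptive only. The 5′ ends of intronic genes lay a median of 1672 bp from the nearest host TSS, with quartiles at 893 and 3233 bp. Of the 23 within 500 bp, 7 had a thresholded summit (30.4%, 13.2 to 52.9), and of the 186 farther away 2 (1.08%, 0.130 to 3.83). Those 2, U4:39B and Me18S-C1968, had the summit inside the RNA gene.

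**Figure D3:**
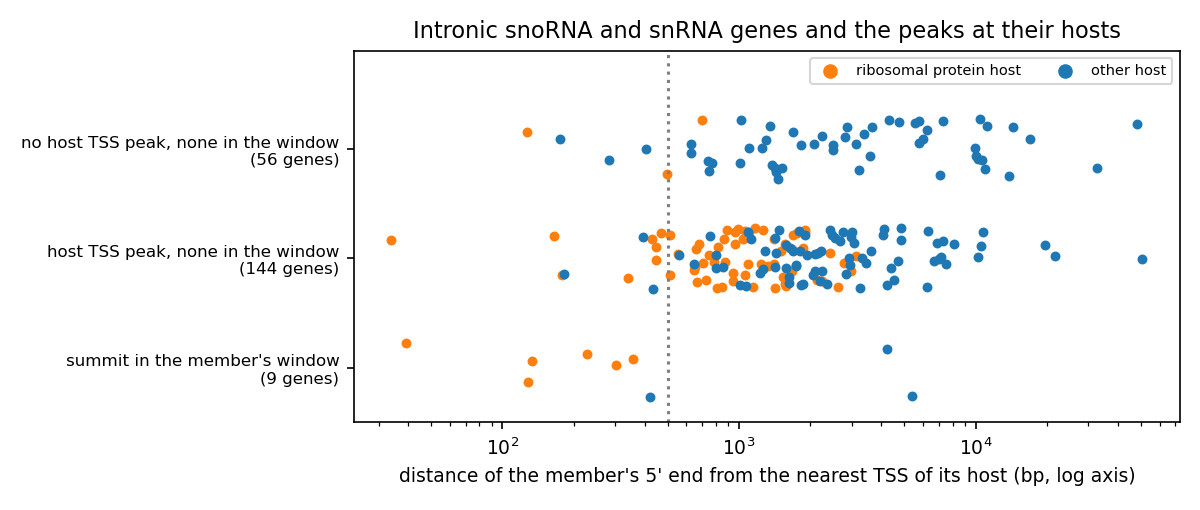
Distance from the nearest host TSS to the 5′ end of each of the 209 intronic genes (x axis, log scale, bp), in rows by whether its window held a thresholded summit and whether its host had a TSS peak; points are spread vertically within a row, and colour marks ribosomal protein hosts. Of the 9 genes with a summit, 7 lie within 500 bp (dotted line), and the middle row holds the 144 genes whose host has a TSS peak and whose window held no summit.

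Hosts with many snoRNAs differed in their promoter peaks. RpS5a, a protein of the small ribosomal subunit with 14 snoRNAs, had a peak of score 321 and rank 223 (rank 275 in replicate 1 and 192 in replicate 4), and its nearest snoRNA began 447 bp from a start. Arpc2, a subunit of the actin-nucleating Arp2/3 complex with 17, had one of 114 that ranked 2278 in replicate 1 and had no match within 100 bp in replicate 4. The chromatin remodeller dom, with 15, had one of 114, and the translation regulator kra, with 8, had 4 peaks, the highest at 172 and also without a match in replicate 4. None of the snoRNAs of these 4 hosts had a thresholded summit in its window. Sf3b3, a splicing factor gene with 9 snoRNAs and a TCT form, had no thresholded TSS peak, with a best relaxed score of 29.2. Nop60B, with 7, had none either, with 55.0. RpL23A had the highest peak of any host, at 385.

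Non-coding hosts showed peaks at 3 of 8. Uhg4, with 7 snoRNAs, had one at chr2R:9095157-9095293 of score 344 and rank 191, which was 169 in replicate 1 and 183 in replicate 4. Its summit lay 59 bp upstream of the Uhg4 start, 158 bp upstream of Psi28S-2949 and 471 bp from Or-aca5, and no coding TSS was within 500 bp. Uhg2 had one of 86.4, ranked 3137 in replicate 1 and 4517 in replicate 4, which reached Me18S-A1576 and also lay 138 bp from a start of the coding gene Bka. Uhg8 had one of 99.2 (rank 6812 in replicate 1 and 2043 in replicate 4) that reached no snoRNA window. Uhg1 with 16 snoRNAs and Uhg5 with 11, both with a TCT form, had no thresholded peak, and their best relaxed scores were 45.4 and 67.5.

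The 10 peaks away from any host or coding TSS stood at genes with no host, or inside the RNA gene itself. In 7 of the 10 the summit lay within the annotated RNA gene, which is 7 of 301 genes (2.33%) beside 0.451% of tiles of 135 bp, the members' median length, and beside 10.8% of all genes, most of them longer. 3 of these 7 genes have a copy of at least 90% identity elsewhere in the genome. How the authors' alignment placed reads that match several copies is not recorded in the material at hand, and its part in these values was not tested. The other 4 genes have no such copy.

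7SKa had the highest of the 10. 7SK RNA holds the elongation factor P-TEFb in an inactive particle. The peak at chr3R:7474639-7475078 scored 222 and ranked 591, with 105 and rank 516 in replicate 1 and 128 and rank 587 in replicate 4. Its summit lay 137 bp into the 444 bp gene and 1078 bp from the nearest coding start. The second 7SK gene, 7SKb, had no summit in either list, and its nearest thresholded summit was 58413 bp away. The 2 genes thus differed in both lists.

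Of the 5 U1 genes, which make the RNA that pairs with 5′ splice sites, 2 had a thresholded peak. U1:95Ca (chr3R:23859389-23859828) scored 126, with 61.2 in replicate 1 and 64.1 in replicate 4, and its summit lay 21 bp into the gene and 3 bp from the centre of the core site shared by all U1 genes. U1:82Eb (chr3R:4947714-4948153) scored 76.8, with 40.3 and 35.3, and its summit lay 162 bp from the start, at the 3′ end of the gene, with the centre of a core site 37 bp away. That core site is a different match, outside the gene, and not the one shared by all U1 genes. The remaining copies had lower values. U1:21D reached 27.7 and U1:95Cc 24.4 in the pooled relaxed list, and U1:95Cb had no summit in it. U1:95Ca, U1:21D and U1:95Cb are identical over their 164 bp, so the values of these 3 differ although the gene sequence does not.

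The U6 genes, whose RNA forms the catalytic core of the spliceosome and is made by RNA polymerase III, lie in a cluster. The peak at chr3R:24556880-24557319 had its summit between U6:96Ab and U6:96Ac, 115 bp before the latter and 302 bp after the former. It scored 90.1, with 50.3 in replicate 1 and 40.6 in replicate 4. U6:96Aa, the third copy, was 906 bp from the nearest summit; the 3 copies are identical. U4:39B, for the RNA that pairs with U6, had a summit 32 bp into the gene with a score of 80.6 (38.0 and 42.4), in an intron of Atg18b, an autophagy gene whose nearest start was 5426 bp away. None of the 6 U2 and 7 U5 genes had a thresholded summit, which allows shares of up to 45.9% and 41.0%, although U5:35D had one without replicate 1. In the relaxed list 2 U2 and 3 U5 genes had one, the highest being U5:35D at 67.0, 98 bp from a start of ND-B17, and U5:63BC at 63.1, inside the gene. The minor spliceosome genes U11, U12 and U4atac reached 38.7, 29.4 and 37.9 in the relaxed list, and U6atac and U7, whose RNA acts in histone mRNA processing, had no summit.

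Among snoRNAs with no host or away from the host's start, 5 had a peak. snoRNA:185, a gene of 55 bp with no host, had one at chr2R:19726968-19727407 of score 185 and rank 930, with 66.8 in replicate 1 and 114 in replicate 4, its summit 36 bp before the gene and 13112 bp from the nearest coding start. Psi18S-176 (score 119, with 49.3 and 61.7) and Psi28S-3342 (score 102, with 38.1 and 57.5) had the summit 47 and 51 bp into the gene. Psi18S-301 had one of 78.5, 99 bp upstream. Its scores were 53.4 in replicate 1 and 17.8 in replicate 4, where it ranked 16588. Me18S-C1968, in an intron of Swim, had one of 80.1 (42.9 and 51.9), 99 bp into the gene, and it is 1 of the 3 intronic snoRNA genes with AATTCCC in the 100 bases before the gene.

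**Figure D4:**
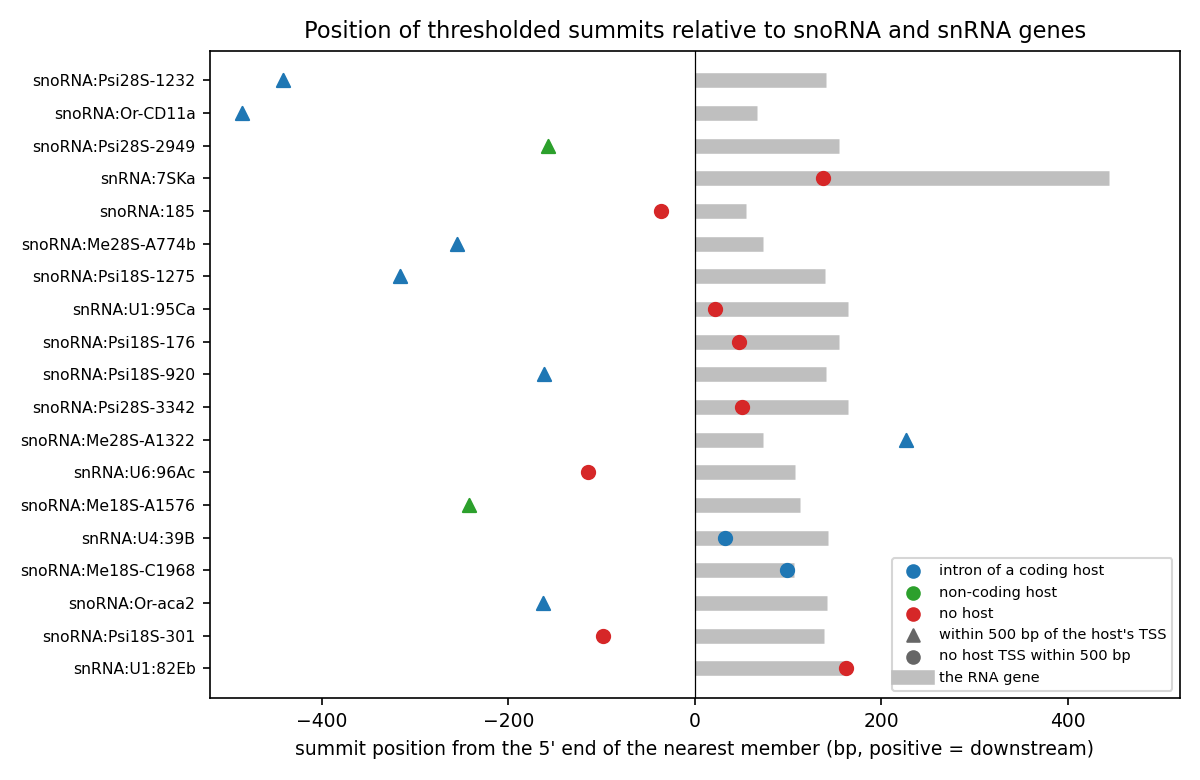
Position of the 19 thresholded summits (x axis, bp from the 5′ end of the nearest snoRNA or snRNA gene, downstream positive), ordered by score from the top; grey bars are the RNA genes to scale, colours the class of the gene, and triangles summits within 500 bp of a host TSS. In 11 cases the summit lies upstream of the gene, and the 7 summits inside a gene are all circles, with no host TSS near.

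AATTCCC stood in the 100 bases before 22 of the 32 snRNA genes (68.8%), beside 1.49% of all genes. It began 57 to 63 bases before the gene, with a median of 60, and always on the gene's strand. It stood before 14 of the 21 snRNA genes with no host (66.7%) and 8 of the 11 within a coding intron (72.7%). Of the 6 snRNA genes with a thresholded summit, 4 had it (7SKa, U1:95Ca, U1:82Eb and U4:39B), and the 2 U6 genes had no exact match. No match says only that these letters are not in the window. Among snoRNA genes it stood before 2 of the 25 with no host, one of them U3:9B, and 3 of the 198 in coding introns. Of those 3, Me18S-C1968 and Me18S-C1831 had it on the gene's strand, 62 and 51 bases before the gene. The scaRNA gene MeU5-G38 had it on the other strand, 22 bases before. Among the 22 snRNA genes with the element, 18 had no thresholded peak.

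**Figure D5:**
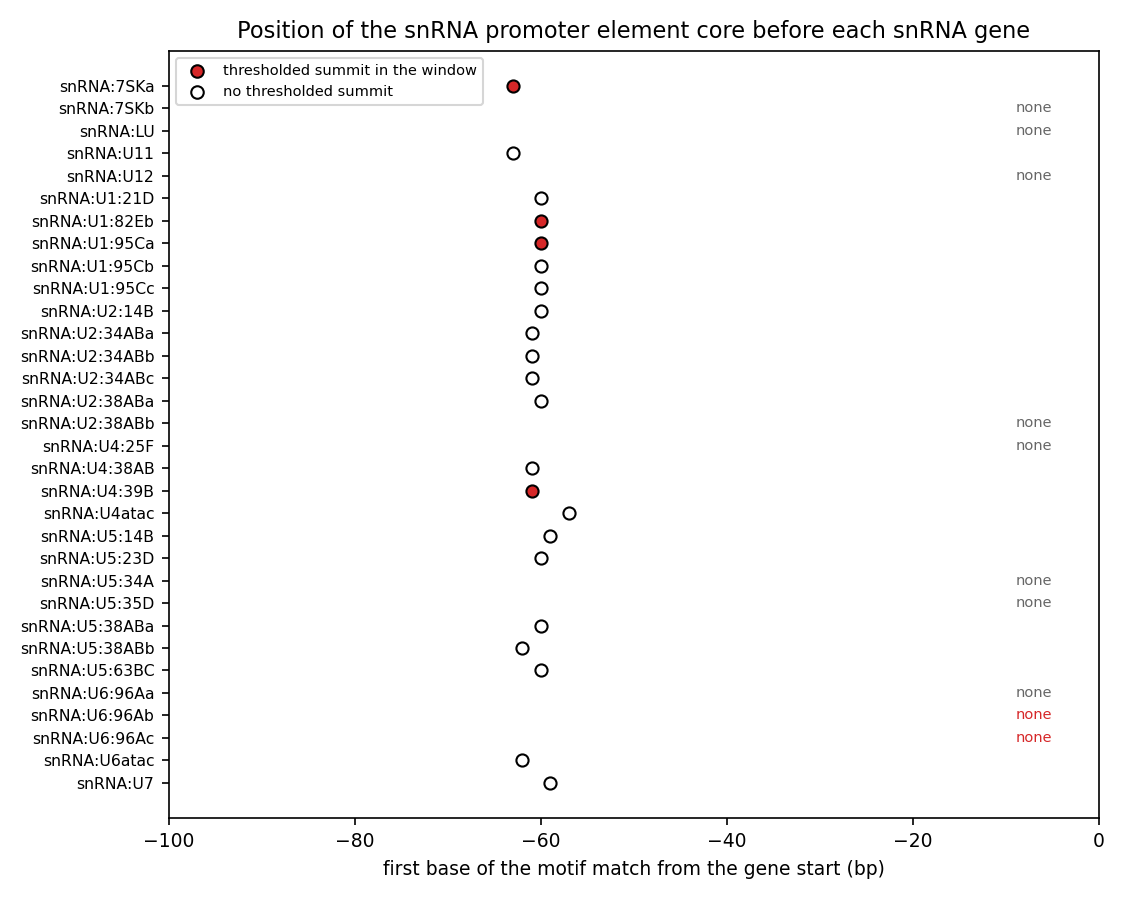
First base of AATTCCC before each of the 32 snRNA genes (x axis, bp from the gene start; y axis, genes), filled where the gene's window held a thresholded summit; "none" marks genes with no exact match in 100 bases, in red for the 2 with a summit. The 22 matches lie between 57 and 63 bases before the gene, and 4 of them belong to genes with a summit.

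The Ovo core site TAACNGT, searched on both strands, lay within 50 bp of 2 of the 19 summits, both at U1 genes, beside 14.5% of all thresholded summits. In the whole windows it occurred in 94 of the 301 genes (31.2%), beside 26.2% of tiles of the same width, and inside the RNA gene in 21. It was in the window of 10 of the 21 genes with a thresholded summit and of 84 of the 280 without (30%). Counted the other way, 10 of the 94 genes with a core site in the window had a thresholded summit (10.6%), as did 11 of the 207 without one (5.31%); this difference was not tested.

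In the relaxed list, 65 further peaks lay in member windows, with a median score of 31.8 and a range of 22.0 to 72.9. A match within 100 bp in both replicates' lists was found for 21 of the 65. The highest was inside Psi28S-2566, in an intron of CG3902, at 72.9 and rank 4643, followed by one 23 bp from the start of RpL15, host of Me18S-G1358c, at 71.0 and one near Me18S-G1358a in an intron of drn at 68.8. Of the 65, 14 lay inside an RNA gene and 45 were near neither a host nor a coding TSS.

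The genes whose products make these RNAs and their particles were also examined, on a list of 56. Of these, 22 had a thresholded TSS peak by the measure used for hosts (39.3%, 26.5 to 53.2), beside the 23.5% of all coding genes. 1 gene, wde, was listed as a Cajal body gene and is known as a cofactor of a histone methyltransferase; without it the count was 21 of 55. All 4 listed assembly factors of snoRNA particles had a peak, with Nopp140 at 161, Nufip at 156, and the ATPases rept and pont at 114 and 103. Of the box C/D proteins, the methyltransferase Fib had one at 120 and hoip one at 104, while Nop56 and nop5 had none. None of the 4 box H/ACA proteins had one: Nop60B, the pseudouridine synthase, NHP2, Nop10 and Gar1. The intervals of groups this small are wide, and 0 of 4 allows a share of up to 60.2%.

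On the snRNA side, none of the 3 PSEA-binding proteins (Pbp95, Pbp49 and Pbp45) had a peak. The Integrator complex, which cuts snRNA transcripts at their 3′ end, had one at 6 of 14 genes, the highest at IntS14 (272, rank 789 in replicate 1 and 270 in replicate 4) and the lowest at IntS10 (82.2). Of the 7SK particle, Larp7 had one of 243 (rank 628 and 393) and bin3 one of 178 that ranked 4436 in replicate 1 and 534 in replicate 4, and Hexim had none. The SMN complex, which loads Sm proteins onto snRNAs, had 3 of 6 (rig 154, Gem2 153 and Smn 99.5). The 7 Sm core genes had 2 (SmD3 142 and SNRPG 102, the latter with no match in replicate 1), the export and cap genes 1 of 6 (Cbp20, 133) and the methylosome 1 of 3 (icln, 86.4). A core site lay within 50 bp of a summit at 3 of the 22, namely defl (which had 2 peaks), IntS14 and Gem2, beside 14.5% of all thresholded summits.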

How the data were processed

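Peak lists of 2 biological replicates of 1 group were used on dm6; the dm3 lists were not used here. A text record among the deposited files says that relaxed peaks were called over a control and passed to IDR, which gave the thresholded list. For the aligner, the peak caller and the limit of the IDR step, the entry is: not given in the sources used here. The deposited files hold 2 quantities used here: a score, which is the authors' measure of enrichment over the control and served here for ranks inside a list, and the offset of the summit from the peak start. No read counts were at hand, so depth is unknown. 4476 of the 4477 thresholded peaks are among as many pooled peaks of highest score.

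Genes came from Ensembl release 115 and sequence from the RefSeq Release 6 genome; positions are 1-based. A gene was intronic where it lay in a same-strand intron of a protein-coding gene. Peaks were matched between lists within 100 bp. Replicates were compared by score and rank. With 1 group no test between conditions was made; shares have Clopper-Pearson intervals, and stand beside backgrounds computed the same way. Members with a copy were those of at least 90% identity. Each motif was searched by exact letters. Genes were named as all members with a thresholded peak, the hosts with most members or highest scores, and listed pathway genes. The members, lists and motifs were chosen with earlier results of these data known. Alternatives were window size, stricter lists, peak overlap and each replicate alone. The counting was tested on simulated peaks. Python 3.11.15, pandas 2.3.3, numpy 2.4.6 and scipy 1.17.1 were used.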

Additional observations from a re-analysis of the deposited data

How the results depend on the processing

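The count of genes with a thresholded summit (21) depends on the window. It was 7 for the gene body alone, 9 with 100 bp and 57 with 1000 bp (2.33%, 2.99% and 18.9% of members, beside 10.8%, 15.6% and 27.2% of all genes); intronic genes (9) gave 2, 2 and 41, and independent genes (12) gave 5, 7 and 16. With the 1000 peaks of highest score, 6 genes, 2 intronic and 4 independent, had one, and counting any overlap of the peak interval gave 32, with 19 intronic. The relaxed count (80) was 40 with the 10000 best peaks, and 21, 31 and 152 for the gene body, 100 bp and 1000 bp. The pathway count (22) was 12 within 100 bp of a TSS. For the stricter lists, the peak overlap, the relaxed alternatives and this pathway alternative, the share of all genes was not computed.

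With the same number of best peaks from replicate 4 alone or replicate 1 alone, the count ranged from 19 to 23, for intronic genes from 10 to 11, for independent genes from 9 to 12, for hosts from 52 to 59 (54 as reported) and for pathway genes from 24 to 26. The 19 genes without replicate 1 are 6.31% of members, beside 23.72% of all genes. The 23 without replicate 4 are 7.64%, beside 23.35%. 14 of the 21 genes had a summit in all 3 lists. Without replicate 1, U1:82Eb, U4:39B, both U6 genes, Me18S-A1576 and Psi18S-301 lost theirs, and without replicate 4 Me28S-A1322 did. Gained were 4 genes without replicate 1 (U5:35D, Me18S-C1096, Me18S-C1366 and Me18S-G1358a) and 3 without replicate 4. The snRNA count (6) ranged from 3 to 6, and counting sta as a ribosomal protein host gave 27 hosts with a peak in place of 26; both were looked at after seeing the data. No paired analysis was possible because the 2 replicates form 1 group. Depth is unknown, so a gene without a peak is not shown to be unbound.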
